A study of Mus musculus with 5 samples.

Results

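Genes of the ubiquitin, SUMO and proteasome systems were compared between adult mouse retina and the cortex of newborn mice. Members were chosen by name: a probe counted when its only gene symbol in the platform annotation began with Psma to Psmg, Ube2, Ube3, Usp plus a digit, Uch, Otu, Fbx, Cul plus a digit, Trim plus a digit, Rnf, Ubq, Herc, Nedd4, Klhl, Senp, Sumo or Cops. This gave 392 probes of 292 genes, out of 8944 genes with a single symbol, and 284 of the 292 genes had a probe with a value on every array, out of 8798 genes in all. The retina RNA was a pool from adult C57/B6 mice and was labelled with the red dye Cy5. The cortex RNA was a pool from Swiss-Webster mice on postnatal day 1 and was labelled with the green dye Cy3. Both pools were hybridised together on 5 two-colour Agilent arrays, which the labels call technical replicates, and the series was designed to show how far expression values vary within a platform. With 1 pool per tissue, age, strain, tissue and dye cannot be told apart, and the p-values below measure only labelling and hybridisation error.

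Values are given on the log2 scale as retina over cortex, converted from deposited ratios read as log10, with mean ± SD over n = 5 arrays. The log base and the direction are likely and not stated: the values end exactly at 2 and -2, as Agilent's log10 ratios of red over green do. Higher and lower below mean higher or lower in retina by limma's two-sided test for a difference above 2-fold, or 1 on the log2 scale, with Benjamini-Hochberg adjusted p under 0.05 over all 8798 genes. Tissue markers ran with the labels, since 4 of 4 measured photoreceptor genes were higher and 14 of 16 genes of immature neurons and 7 of 10 factors of cortical projection neurons were lower. Among markers of other cells the pieces could hold, 1 of 5 microglia genes was higher (Laptm5), while 3 of 8 meningeal genes were lower. Of 2 pigment epithelium and lens genes Ttr was lower, while the lens gene Crygb stood at 1.22 ± 0.24 and did not pass. Of 3 red cell genes Hbb-b2 was lower, while Slc4a1 and Hbb-y stood at 0.10 ± 0.02 and 0.04 ± 0.04. Of all genes, 2.8% were higher and 3.83% lower. In pooled bulk RNA, fewer cells of a type and less RNA per cell cannot be told apart. The other 23 of 27 listed photoreceptor genes were not analysed here.

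Ubiquitin is a small protein that a chain of enzymes attaches to other proteins. An E1 enzyme activates it, an E2 conjugating enzyme carries it, and an E3 ligase chooses the substrate, either as a RING or TRIM protein that brings the E2 close, as a HECT enzyme that takes over the ubiquitin, or as a cullin complex with an F-box or Kelch-like protein as its substrate receptor. The proteasome, a 20S barrel with a 19S cap, destroys tagged proteins, while deubiquitinases remove the tag. SUMO and NEDD8 are related modifiers, and the COP9 signalosome takes NEDD8 off cullins. Protein turnover of this kind is a known part of cell upkeep in photoreceptors and in growing axons.

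The ratios of the members were spread much like those of all genes, and a few members of several roles stood far apart. The 2-fold test called 12 of the 284 measured members. That is 4.23%, where it called 6.63% of all genes. There were 6 higher members, where 2.8% of all genes were higher, and 6 lower members, where 3.83% of all genes were lower, so the members' shares of 2.11% each lay at or below the background. The higher members were Rnf207, Herc3, Klhl18, Usp2, Rnf6 and Rnf113a2. The lower members were Trim67, Ube2ql1, Usp27x, Trim13, Rnf182 and Klhl23.

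The median over the members was -0.06 log2, beside -0.005 over all genes, and the values between their quartiles ran from -0.33 to 0.17, beside -0.30 to 0.23 for all genes. A mean at least 2-fold from 0, with no test, was reached by 19 members, or 6.69%, beside 9.66% of all genes. The 95% interval of the limma fit, which covers error between arrays only, lay wholly within 2-fold of a ratio of 0 for 257 members, or 90.5%, beside 86.6% of all genes. Against a ratio of exactly 0, limma's eBayes test called 219 of 284 members, or 77.1%, beside 73.7% of all genes. Of these, 93 were above 0 and 126 below 0, which is 32.7% and 44.4% of the members, beside 37.0% and 36.7% of all genes. These calls show how small a difference repeated hybridisation of the same pools resolves.

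**Figure D1:**
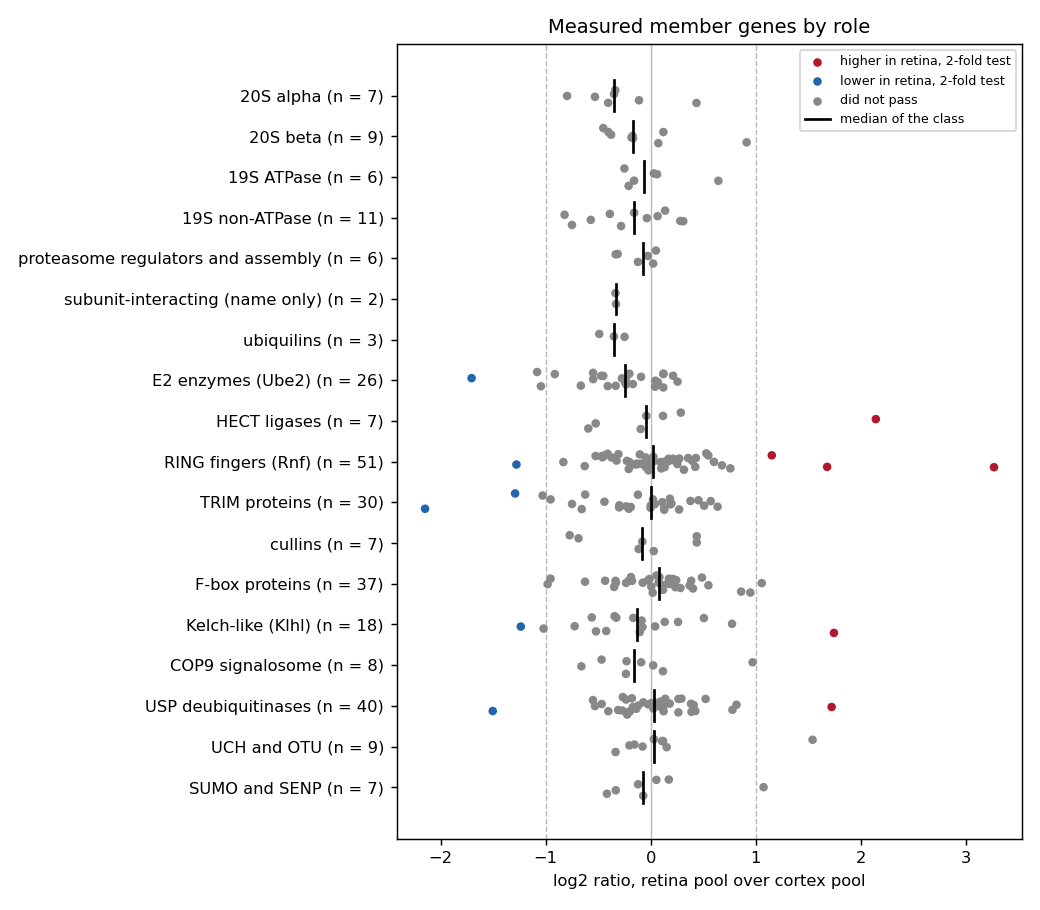
Each point is the log2 ratio (horizontal axis, mean of 5 arrays, retina over cortex) of 1 of the 284 measured members, in rows by role with the number of genes, and the bar is the median of the row; dashed lines mark 2-fold. Class medians lie between -0.35 and 0.08, and the coloured points, the 6 higher and 6 lower members, lie in the E2, HECT, RING finger, TRIM, Kelch-like and USP rows.

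Among the E2 conjugating enzymes, Ube2ql1 was lower and no member was higher. Ube2ql1, an E2-like protein of the Ube2q family, read -1.74, -1.74, -1.66, -1.75 and -1.65 on arrays 1 to 5. All 5 arrays thus lay below 2-fold, at a mean of -1.71 ± 0.05 or 3.26-fold lower, with an adjusted p of 4.6e-06 from limma's 2-fold test. Of the 26 measured E2 genes 25 did not pass, and the class median was -0.24, with 18 genes below 0 and 8 above. Ube2e2 came closest to the threshold, at -1.08 ± 0.02 with a limma adjusted p of 0.0693.

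The E2 genes next to Ube2e2 are known for work on particular chains. Ube2v2, an inactive E2 variant that pairs with Ube2n to build lysine-63 chains, stood at -1.05 ± 0.07 and did not pass. Ube2n itself stood at -0.55 ± 0.06, with its 4 probes between -0.66 and -0.46. Ube2l3, which serves HECT and RING-between-RING ligases, had a mean of -0.91 ± 0.05, but its probes read -1.54 and -0.28. The E2 enzymes of the anaphase-promoting complex, the ligase that drives exit from mitosis, lay on both sides of 0: Ube2c at -0.67 ± 0.17 and Ube2s at 0.26 ± 0.03, neither past the test. Beside them, 4 of 25 measured cell cycle genes were lower and none was higher, and the part of dividing cells in these ratios was not tested.

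Herc3 was the only higher gene among the 7 measured HECT ligases, and it stood alone in its family. Herc3 is a small member of the HERC family, in which a HECT domain is joined to an RCC1-like domain. It read 1.96, 1.95, 2.48, 2.10 and 2.24 on arrays 1 to 5, so that all arrays lay near or above 4-fold. The mean was 2.15 ± 0.22, or 4.42-fold higher, with an adjusted p of 0.000118 from limma's 2-fold test, and its probes gave means of 1.93 and 2.36. Herc4, its closest relative among the measured genes, stood at 0.12 ± 0.08, and the giant HERC genes Herc1 and Herc2 at -0.59 ± 0.08 and -0.04 ± 0.04. Nedd4, a ligase of membrane channels and receptors, was at -0.10 ± 0.10 over 4 probes, and Ube3b and Ube3c were at 0.29 ± 0.09 and -0.52 ± 0.10.

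The RING finger genes, the largest class with 51 measured genes, held the highest member and 3 of the 6 higher ones. In both directions together the 2-fold test called 7.84% of the class, beside 6.63% of all genes. Rnf207, known from heart muscle, where its human and zebrafish forms affect a potassium channel and repolarisation, read 3.46, 3.34, 3.15, 3.16 and 3.23 on arrays 1 to 5. Every array put it above 8-fold. The mean was 3.27 ± 0.13, or 9.66-fold higher, with an adjusted p of 5.23e-07 from limma's 2-fold test, and it ranked 14 of 8798 genes from the top.

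Rnf6, a ligase that in mouse neurons acts on LIM kinase and axon growth, read 1.39, 1.56, 1.69, 1.78 and 1.99 on arrays 1 to 5. The arrays spread widely but all lay above 2-fold, at a mean of 1.68 ± 0.23 or 3.21-fold higher, with a limma adjusted p of 0.0019. Its probes had means of 1.60 and 1.76, and the first of them ran between 0.91 and 2.17 over the arrays.

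Rnf113a2 and Rnf113a1 are copies of a gene whose human form takes part in splicing, and probes of such close copies may share target RNA. Rnf113a2 read 1.13, 1.20, 1.12, 1.15 and 1.17 on arrays 1 to 5. The arrays were nearly equal, at a mean of 1.15 ± 0.03 or 2.23-fold higher, with a limma adjusted p of 0.0051. Rnf113a1 stood at 0.76 ± 0.13 and did not pass.

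Rnf182 was the lower RING finger gene. It encodes a membrane-bound ligase found mainly in brain, and it read -1.28, -1.28, -1.28, -1.32 and -1.23 on arrays 1 to 5. The mean was -1.28 ± 0.03, or 2.43-fold lower, with an adjusted p of 0.00028 from limma's 2-fold test. The other 47 of 51 RING finger genes did not pass, and the class median was 0.03. Among those known from chromatin, the Polycomb ligase Rnf2 stood at -0.41 ± 0.13, and Rnf20 and Rnf40, which together tag histone H2B, at -0.31 ± 0.21 and 0.17 ± 0.05.

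In the TRIM family, whose members join a RING domain to B-box and coiled-coil domains, 2 of 30 genes were lower and none was higher. Trim67, a neuronal TRIM protein that in mouse neurons binds the netrin receptor DCC, read -2.16, -2.15, -2.10, -2.25 and -2.09 on arrays 1 to 5. This was the lowest ratio of any measured member, with all arrays beyond 4-fold. The mean was -2.15 ± 0.06, or 4.44-fold lower, with an adjusted p of 1.03e-06 from limma's 2-fold test.

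Trim13, a ligase anchored in the endoplasmic reticulum, read -1.46, -1.26, -1.32, -1.24 and -1.18 on arrays 1 to 5. Its mean was -1.29 ± 0.11, or 2.45-fold lower, with a limma adjusted p of 0.0051. With the spread of the arrays scaled to be equal it no longer passed, at an adjusted p of 0.0558. Other TRIM genes with roles in axons lay near the threshold without passing it: Trim46, which bundles microtubules at the start of the axon, at -1.03 ± 0.02, and Trim2, which tags neurofilament light chain, at -0.95 ± 0.18. The highest TRIM gene was Trim25, a ligase of antiviral RNA sensing, at 0.64 ± 0.15.

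**Figure D2:**
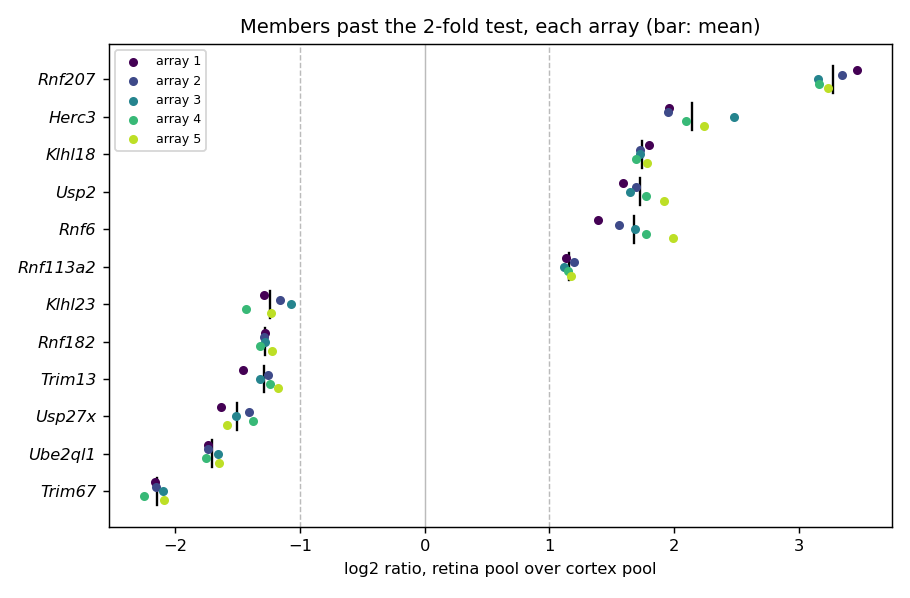
Each row is 1 of the 12 members past the 2-fold test and each point its log2 ratio on 1 of the 5 arrays (horizontal axis, retina over cortex), with a bar at the mean and dashed lines at 2-fold. The points of Rnf207 lie between 3.15 and 3.46 and those of Trim67 between -2.25 and -2.09, and all points lie beyond 2-fold on the side of their mean.

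The cullins, the scaffolds of a large group of ligases, had means within 2-fold. None of 7 cullins passed limma's 2-fold test, and 0 had an unadjusted p under 0.05, which a mean within 2-fold cannot reach in that test. Against 0, the eBayes test called 5 of the 7, or 71.4%, beside 73.7% of all genes, with 2 above and 3 below 0. Cul2, the scaffold of the von Hippel-Lindau ligase, was lowest at -0.77 ± 0.06 and Cul7 followed at -0.69 ± 0.07. The paralogs Cul4a and Cul4b, which share the adaptor DDB1, stood at 0.44 ± 0.12 and -0.11 ± 0.06. Cul3, the partner of Kelch-like proteins, had a mean of 0.03 ± 0.17, but its 3 probes ran from -0.65 to 0.84, so the mean hides probes of opposite sign.

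Of 18 measured Kelch-like genes, 1 was higher and 1 lower. Klhl18, which with Cul3 in mouse rods promotes the breakdown of Unc119 and so affects the movement of transducin in light, read 1.80, 1.72, 1.73, 1.69 and 1.78 on arrays 1 to 5. The arrays lay close together, at a mean of 1.75 ± 0.04 or 3.35-fold higher, with an adjusted p of 3.01e-06 from limma's 2-fold test.

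Klhl23 read -1.29, -1.16, -1.07, -1.43 and -1.23 on arrays 1 to 5. All arrays lay beyond 2-fold, at a mean of -1.24 ± 0.14 or 2.36-fold lower, with a limma adjusted p of 0.0335. That call rested on the full set of arrays: without array 1, 2, 4 or 5 the adjusted p was 0.124, 0.0597, 0.065 or 0.11. Klhl34, at -1.02 ± 0.40, had a mean past 2-fold but did not pass. Klhl7, a gene in which human mutations cause retinitis pigmentosa, had a mean of -0.72 ± 0.06 with probes at -1.41 and -0.04, and Klhl21, which acts with Cul3 in cell division, stood at 0.78 ± 0.03. Neither passed.

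The promoters of the most extreme members with an entry in RefSeq's table (build GRCm38.p6) are shown for reference, each running from 250 bases before to 50 after the annotated start and read 5′ to 3′ on the gene's strand. Capitals mark letters searched on both strands: TAATCC, a core bound by the photoreceptor factors CRX and OTX2, CACGTG, the E-box of the clock factors, and TGACNNNGC, a core of the antioxidant response element bound by Nfe2l1 and Nfe2l2. Herc3 (chr6:58833450-58833749, plus strand) and Klhl18 (chr9:110476645-110476944, minus strand) come from the higher side, Trim67 (chr8:124792769-124793068, plus strand) and Ube2ql1 (chr13:69739848-69740147, minus strand) from the lower side.
Herc3: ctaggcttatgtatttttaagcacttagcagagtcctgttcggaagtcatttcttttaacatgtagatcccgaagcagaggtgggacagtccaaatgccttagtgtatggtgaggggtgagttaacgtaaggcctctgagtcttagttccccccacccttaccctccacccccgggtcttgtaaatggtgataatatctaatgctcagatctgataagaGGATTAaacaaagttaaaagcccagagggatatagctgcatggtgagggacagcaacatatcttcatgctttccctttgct
Klhl18: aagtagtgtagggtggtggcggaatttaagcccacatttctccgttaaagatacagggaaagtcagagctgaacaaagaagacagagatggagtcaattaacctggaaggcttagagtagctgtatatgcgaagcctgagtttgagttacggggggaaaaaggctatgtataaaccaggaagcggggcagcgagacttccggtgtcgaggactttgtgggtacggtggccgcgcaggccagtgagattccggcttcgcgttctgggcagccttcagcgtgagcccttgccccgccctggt
Trim67: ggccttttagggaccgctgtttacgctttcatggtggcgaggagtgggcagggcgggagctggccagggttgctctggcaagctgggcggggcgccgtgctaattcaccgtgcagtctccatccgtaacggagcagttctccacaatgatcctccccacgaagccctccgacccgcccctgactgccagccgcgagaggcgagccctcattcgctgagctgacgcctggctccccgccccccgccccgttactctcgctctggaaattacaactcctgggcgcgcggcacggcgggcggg
Ube2ql1: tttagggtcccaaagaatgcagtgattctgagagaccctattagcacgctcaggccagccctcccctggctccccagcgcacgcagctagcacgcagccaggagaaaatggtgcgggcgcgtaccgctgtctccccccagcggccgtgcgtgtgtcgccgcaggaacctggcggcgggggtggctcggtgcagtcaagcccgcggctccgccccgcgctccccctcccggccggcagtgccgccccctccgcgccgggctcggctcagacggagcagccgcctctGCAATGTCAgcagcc
Herc3 held TAATCC as its reverse complement, Ube2ql1 held TGACNNNGC on the reverse strand, and none of these letters occurred in the windows of Klhl18 and Trim67. Over the 4 of 6 higher members with an entry, TAATCC stood in 1 of 6 windows, and over the 6 lower members in 0 of 9 windows, while it stood in 9.09% of 286 windows of all measured members and in 7.06% of all 32851 windows of the table. CACGTG stood in none of the 6 and 9 windows, in 9.44% of the members' windows and in 7.15% of all windows. TGACNNNGC stood in 1 of 6 windows of higher and 1 of 9 windows of lower members, in 15.7% of the members' windows and in 12.4% of all windows. A match is a run of letters and no shown binding site.

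F-box proteins, the receptors of the SCF ligases, had no gene past limma's 2-fold test among 37, and 0 with an unadjusted p under 0.05 in that test. Against 0, the eBayes test called 28 of the 37, or 75.7%, beside 73.7% of all genes, with 17 above and 11 below 0. The class median was 0.08. Fbxl5, the iron-sensing receptor that controls iron regulatory protein, was highest at 1.06 ± 0.43, but array 2 gave 0.33, where the remaining arrays lay between 1.06 and 1.40. Fbxo9 at 0.95 ± 0.06 and Fbxl12 at 0.86 ± 0.10 were more even. On the other side lay Fbxw14 at -0.98 ± 0.39 and Fbxo41, a neuronal F-box protein, at -0.95 ± 0.04. Fbxw14 belongs to a mouse family of near-identical copies, and which copy its probe reads is uncertain. The tumour suppressor Fbxw7, which removes cyclin E and Myc, stood at -0.18 ± 0.04 with probes that agreed.

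The COP9 signalosome had 0 of 8 genes past limma's 2-fold test, and 0 with an unadjusted p under 0.05, which means within 2-fold cannot reach. Against 0, the eBayes test called 6 of the 8, or 75%, beside 73.7% of all genes, with 2 above and 4 below 0. The means of the catalytic subunit and the alternative subunits lay farther from 0 than those of the rest. Cops5, which holds the site that cleaves NEDD8 from cullins, was lowest at -0.66 ± 0.06. Cops7a and Cops7b, which replace each other in the complex, lay on opposite sides of 0, at 0.97 ± 0.05 and -0.47 ± 0.23. Cops7a was above Cops7b on all 5 arrays, by 1.25 to 1.83 log2, and Cops7b itself ran from -0.86 on array 2 to -0.29 on array 5. The other 5 subunits stood between -0.24 and 0.12, and the probes of Cops4 among them ran from -0.32 to 0.36.

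Among the USP deubiquitinases, the largest family of ubiquitin proteases, 1 of 40 genes was higher and 1 lower. Usp2, whose transcript is known to cycle with the circadian clock in mouse tissues, read 1.59, 1.69, 1.64, 1.77 and 1.92 on arrays 1 to 5. All arrays lay above 2-fold, at a mean of 1.72 ± 0.13 or 3.30-fold higher, with an adjusted p of 0.000105 from limma's 2-fold test. The time of day at which the tissues were taken is not given in the sources used here.

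Usp27x, an X-linked relative of the SAGA complex protease Usp22, read -1.64, -1.41, -1.51, -1.37 and -1.59 on arrays 1 to 5. The mean was -1.50 ± 0.11, or 2.84-fold lower, with a limma adjusted p of 0.000375. Its relatives Usp22 and Usp51, which share the same activating partners, stood at -0.40 ± 0.31 and -0.53 ± 0.11 and did not pass. Usp12 and Usp46, close paralogs that both work with the cofactor Wdr48, lay apart at 0.82 ± 0.10 and -0.47 ± 0.07, neither past the test, with Usp12 above Usp46 by 1.14 to 1.37 log2 on all 5 arrays. Usp33 stood at 0.78 ± 0.14 from the probe with a value on all arrays, while a further probe without array 4 read between -0.52 and 0.42.

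The UCH and OTU deubiquitinases had no gene past limma's 2-fold test among 9, and 1, Otud7b, with an unadjusted p under 0.05 in that test. Against 0, the eBayes test called 6 of the 9, or 66.7%, beside 73.7% of all genes, with 3 above and 3 below 0. Otud7b, also called Cezanne, which cuts lysine-11 chains, read 2.09, 1.36, 1.86, 1.41 and 1.00 on arrays 1 to 5 and averaged 1.54 ± 0.43, with an adjusted p of 0.0995. Its probes disagreed in size, with means of 2.55 and 0.53, the widest gap among members with several probes. The lowest was Otud6b at -0.33 ± 0.13. The other 7 genes lay between that and 0.15, among them the proteasome-bound Uchl5 at 0.15 ± 0.05 and the small hydrolase Uchl3 at 0.11 ± 0.02.

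**Figure D3:**
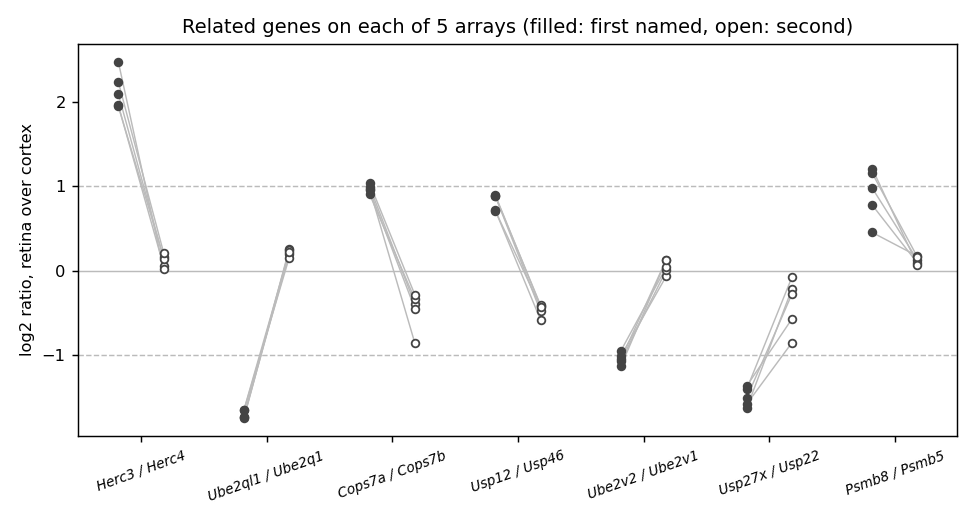
For 7 pairs of related genes, each point is the log2 ratio on 1 of 5 arrays (vertical axis, retina over cortex), filled for the first named gene and open for the second, with lines joining values of the same array. The values of the pairs do not overlap, and the mean differences run from -1.92 for Ube2ql1 minus Ube2q1 to 2.03 for Herc3 minus Herc4.

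Some closely related genes had very different ratios. These pairs were chosen after their values were seen and get no test. Ube2ql1 lay below Ube2q1 (0.21 ± 0.04) by 1.81 to 1.99 log2 on the 5 arrays, and Herc3 above Herc4 by 1.79 to 2.46. Ube2v2 lay below Ube2v1, the other partner of Ube2n, by 0.94 to 1.26, with Ube2v1 at 0.04 ± 0.08. Usp27x lay below Usp22 by 0.73 to 1.42. Within the Ube2e genes, Ube2e2 lay below Ube2e1 (-0.33 ± 0.06) by 0.71 to 0.82 and below Ube2e3 (-0.09 ± 0.07) by 0.91 to 1.08. In contrast, the immunoproteasome subunit Psmb10 and the standard subunit it replaces, Psmb7, differed by only -0.03 ± 0.08 on average. Whether probes of related genes also bind each other's RNA was not tested.

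SUMO genes and their proteases had no gene past limma's 2-fold test among 7, and 0 with an unadjusted p under 0.05 in that test. Against 0, the eBayes test called 5 of the 7, or 71.4%, beside 73.7% of all genes, with 2 above and 3 below 0. Sumo2, the SUMO form used in stress responses, was lowest at -0.42 ± 0.04 and Sumo3 stood at -0.12 ± 0.02. Of the proteases that mature or remove SUMO, Senp6 stood at -0.33 ± 0.13, Senp5 at -0.07 ± 0.07, Senp3 at 0.05 ± 0.05 and Senp2 at 0.17 ± 0.11. The farthest from 0 was Senp8, which in spite of its name acts on NEDD8, at 1.08 ± 0.17, with array values that fell on both sides of 2-fold. The ubiquilins, which carry tagged proteins to the proteasome, were all below 0: Ubqln2 at -0.49 ± 0.09, Ubqln4 at -0.35 ± 0.05 and Ubqln1 at -0.25 ± 0.10.

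Proteasome subunits had means within 2-fold, and most lay slightly below 0. None of 33 measured genes named as 20S or 19S subunits passed the 2-fold test of limma. In that test 0 had an unadjusted p under 0.05, which means within 2-fold cannot reach. The 33 include Psmd5 and Psmd10, which act as assembly chaperones of the cap, and without them, a split made after the values were seen, the other 31 had a median of -0.18, with 21 below 0. Against a minimum of 1.5-fold, the subunits Psma1, Psmd14 and Psmd6 were lower, with limma adjusted p of 0.00131, 0.00201 and 0.00175. That minimum called 1408 of all 8798 genes and 32 of the 284 members, in either direction. The median of all 33 was -0.17, with medians on single arrays between -0.21 and -0.15, and 22 of 33 lay below 0. The eBayes test against 0 called 27 of the 33, with 20 below and 7 above 0. It called 126 below and 93 above among the 284 members, and 18 below and 3 above among the 26 E2 genes. Over all 8798 genes it called 3225 below and 3256 above. The SD between subunits was 0.39 log2, beside 0.64 between all genes, and the 95% interval lay within 2-fold for 31 of 33, beside 86.6% of all genes.

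**Figure D4:**
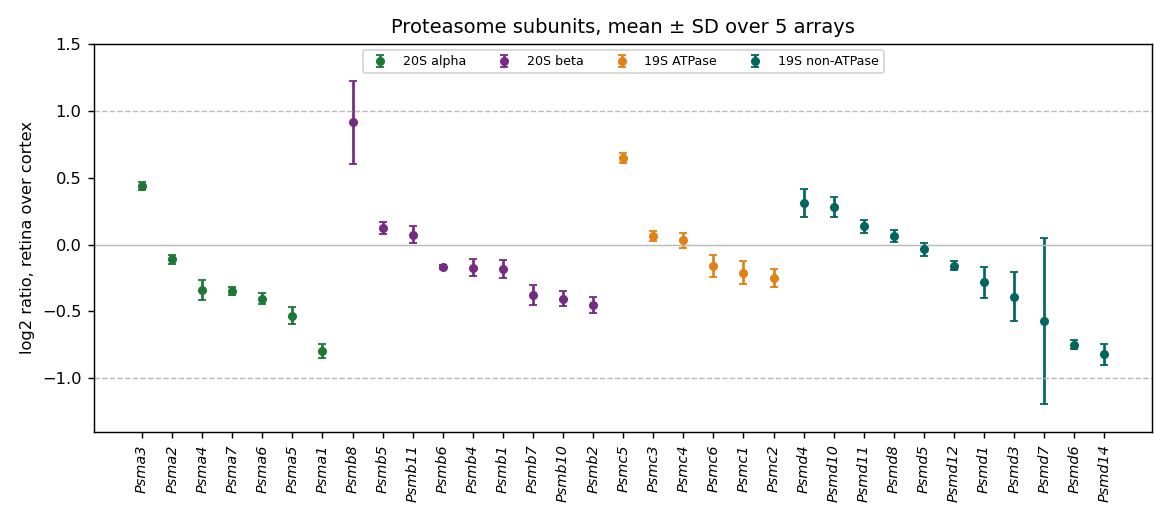
Points are the log2 ratios (vertical axis, retina over cortex) of 33 proteasome subunits, mean ± SD over 5 arrays, grouped by ring or cap part, with dashed lines at 2-fold. Means run from -0.82 for Psmd14 to 0.91 for Psmb8, and the widest error bar, that of Psmd7, comes from array 4.

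In the alpha ring of the 20S barrel, which gates entry to the proteolytic chamber, 6 of 7 genes lay below 0. Psma1 read -0.84, -0.75, -0.73, -0.86 and -0.80 on arrays 1 to 5, and Psma5 stood at -0.53 ± 0.06. Psma6, Psma7 and Psma4 lay between -0.41 and -0.34, and Psma2 at -0.11 ± 0.04. Psma3 was the exception, at 0.41, 0.46, 0.41, 0.44 and 0.47 on arrays 1 to 5, above every value of the other 6. Psma3 lay 1.23 ± 0.06 log2 above Psma1, and a finished ring holds both in equal number.

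The promoter windows of this pair, the ends of the alpha ring, are Psma1 (chr7:114276067-114276366, minus strand) and Psma3 (chr12:70974373-70974672, plus strand), with capitals as above.
Psma1: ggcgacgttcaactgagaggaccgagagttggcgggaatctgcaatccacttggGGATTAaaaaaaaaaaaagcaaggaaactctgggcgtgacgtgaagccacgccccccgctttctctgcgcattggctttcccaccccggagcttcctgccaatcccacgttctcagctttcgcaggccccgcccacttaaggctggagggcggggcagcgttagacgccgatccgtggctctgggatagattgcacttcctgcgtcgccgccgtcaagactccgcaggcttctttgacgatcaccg
Psma3: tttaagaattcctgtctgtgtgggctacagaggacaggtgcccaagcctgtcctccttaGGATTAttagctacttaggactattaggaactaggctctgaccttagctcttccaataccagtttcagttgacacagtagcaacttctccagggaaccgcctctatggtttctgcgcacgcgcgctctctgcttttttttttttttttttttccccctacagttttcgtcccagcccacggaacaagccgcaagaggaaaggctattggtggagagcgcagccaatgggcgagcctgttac
Both held TAATCC as its reverse complement. TAATCC stood in 3 of 29 windows of proteasome subunits, or 10.3%, beside 9.09% of the members' windows and 7.06% of all windows. TGACNNNGC is the core bound by Nfe2l1, which is known to raise proteasome genes when proteolysis fails. This core stood in 13.8% of 29 windows from 27 subunits, beside 15.7% of the members' windows and 12.4% of all windows. The 3 searched motifs were looked for in both directions. The letters of TAATCC and TGACNNNGC leave no way for their matches to overlap.

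The beta ring carries the cutting sites, and its immune forms had ratios of opposite sign. Psmb8, the immunoproteasome form of the chymotrypsin-like subunit, read 0.45, 0.98, 0.78, 1.16 and 1.21 on arrays 1 to 5. Its mean was 0.91 ± 0.31, with values on both sides of 2-fold, and the 95% interval ran from 0.64 to 1.19. Psmb5, the standard form it replaces, stood at 0.12 ± 0.05, and Psmb8 was above it on all arrays by 0.28 to 1.15. Psmb10, the immune form of the trypsin-like subunit, stood at -0.40 ± 0.05 and Psmb2 was lowest at -0.45 ± 0.06. Beside Psmb8, of 5 measured microglia genes Laptm5 was higher at 1.49 ± 0.05. C1qc, C1qb, C1qa and Ptprc stood at -0.52 ± 0.10, -0.20 ± 0.18, -0.07 ± 0.05 and 0.03 ± 0.11. The part of immune cells in the Psmb8 ratio was not tested.

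The 6 ATPases of the 19S cap, which unfold substrates, lay close together except for Psmc5. Psmc5 stood at 0.65 ± 0.04, and the other 5 ran from -0.25 ± 0.06 for Psmc2 to 0.06 ± 0.04 for Psmc3. Among 11 non-ATPase genes, Psmd14, the cap's own deubiquitinase, was lowest at -0.82 ± 0.08, followed by the scaffold subunit Psmd6 at -0.75 ± 0.03. The ubiquitin receptor Psmd4 was highest at 0.31 ± 0.10, and Psmd10, an assembly chaperone also called gankyrin, stood at 0.28 ± 0.07. Psmd7, the structural partner of Psmd14, read -0.34, -0.27, -0.28, -1.68 and -0.28 on arrays 1 to 5. Its mean of -0.57 ± 0.62 thus rested on array 4, without which it was -0.29.

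None of the 6 assembly factors and regulators passed the 2-fold test of limma. In that test 0 had an unadjusted p under 0.05, which means within 2-fold cannot reach. Against 0, the eBayes test called 3 of the 6, or 50%, all below 0, beside 73.7% of all genes in either direction. The chaperones Psmg1 to Psmg4, which help to build the barrel, ran from -0.33 ± 0.10 for Psmg4 to -0.03 ± 0.16 for Psmg2. The inhibitor-like regulator Psmf1 stood at 0.05 ± 0.07 and the activator subunit Psme1 at 0.02 ± 0.04. The rule also took Psmc3ip, a protein of meiotic recombination, and Psme3ip1, which are named after subunits they bind, at -0.33 ± 0.21 and -0.34 ± 0.28.

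Genes of the same pathway that the naming rule does not cover also held few that passed the test. Of 108 measured genes in 7 lists, 5 passed the 2-fold test, or 4.63%, beside 6.63% of all genes, 2 higher and 3 lower, with a median of -0.04. Among 4 ubiquitin-like precursors none passed, with Ufm1 at -0.73 ± 0.05 and Isg15 at -0.37 ± 0.29 farthest from 0, and among 6 E1 enzymes none passed, with Mocs3 at 0.38 ± 0.16 and Nae1 at -0.25 ± 0.10. Of 23 cullin partners 1 was lower, Enc1, a Kelch protein of growing neurons, at -3.33 ± 0.10, while Spop stood at 0.96 ± 0.06. Of 12 genes of the anaphase-promoting complex 1 was lower, Anapc5 at -1.47 ± 0.12, and Anapc4 stood at -0.49 ± 0.11.

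Of 40 further E3 ligases, 1 was higher, Xiap, an inhibitor of apoptosis, at 1.15 ± 0.06, and 1 was lower, Znrf2 at -1.47 ± 0.15. The probes of Xiap read 0.49 and 1.80 and those of Znrf2 ran from -2.18 to -0.71. Of 9 further deubiquitinases 1 was higher, Tnfaip3, also called A20, a brake on NF-kappaB signalling, at 1.52 ± 0.18, and Zranb1 stood at 0.41 ± 0.05. None of 14 shuttles and cofactors passed, with Nfe2l1 at 0.90 ± 0.03 and Ubxn4 at 0.51 ± 0.13.

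The arrays repeated the members' ratios closely. The SD over arrays had a median of 0.084 log2 over the members and 0.085 over all genes, and 224 members, or 78.9%, kept 1 sign over the 5 arrays, beside 73.5% of all genes. Pearson's r across the 284 members, which are no independent replicates, lay between 0.918 and 0.977 for the 10 array pairs. Across all genes it lay between 0.878 and 0.9565. Of 70 members with several probes, 27 had probe means of opposite sign, beside 850 of 2086 such genes in all. The median gap between a gene's probes was 0.44 log2 over the members, beside 0.38 over all genes.

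An SD above 0.354 log2, the 95th percentile over all genes, was found for 10 members, or 3.52%. For 6 of them, Usp18, Trim12a, Fbxl5, Fbxw8, Usp28 and Rnf19b, array 2 lay farthest from the median of the arrays, and it read lowest each time. How often array 2 lay farthest over all genes of high SD was not counted. Usp18, an interferon-induced protease of ISG15, read 0.39, -1.18, 0.26, -0.52 and -0.31 on arrays 1 to 5, on both sides of 0. Trim12a, of a TRIM cluster with near-identical copies, read 0.20, -0.94, 0.09, -0.68 and -0.16. None of these 6 passed the 2-fold test.

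The 8 members without a probe measured on all arrays were Fbxo32, Fbxw15, Fbxw18, Klhl32, Psma8, Trim16, Trim75 and Ube2t. Psma8, a testis form of an alpha subunit, had no value on any array. Fbxw18 read between -2.29 and -1.15 on the 4 arrays that had a value and Fbxw15 between -2.29 and -0.26 on 3 arrays. The other 5 stayed between -0.91 and 0.91 on every array with a value. None of the 8 entered a test.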

How the data were processed

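The deposited table holds 1 column per array of signed values, which were read as log10 ratios of Cy5 over Cy3. What the authors did before deposit (background correction, dye normalization, filters, scanner software) is not given in the sources used here. Per the columns themselves, the deposited log10 columns have medians of 0 on arrays 1 to 4 and -7.32e-05 on array 5, so they stand centred, by an unknown method. Direction and base are likely; turned round, each sign would flip. With no scanner signals at hand, precision rests on the 5 arrays.

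To reach the log2 scale, values were multiplied by 3.32, and an exact 0 was read as no value (1, 1, 3, 12 and 4 of the members' values on arrays 1 to 5). Probe symbols came from the platform annotation and were matched by gene identifier to RefSeq's table of GRCm38.p6, which named 11782 of 11813 probes with a single symbol; 559 probes had several symbols and 9074 were not listed. Probes with a value on all 5 arrays were averaged per gene on each array. Each of 8798 genes was fitted with an intercept in limma version 3.58.1 (R version 4.3.3), tested with eBayes against 0 and with treat against 2-fold. In simulated data with independent noise, the 2-fold test recovered 88.1% of changes of 1.5 log2 and 100% of those of 2 and 3, with 0 false calls. Changes below 1.5 log2 were not simulated.

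Members and lists were chosen with earlier results of these data known. Named genes are the 12 members past the 2-fold test with 1 sign on all arrays and probes, the highest and lowest of each role, and the 2 farthest from 0 of each pathway list; further members are examples chosen after their values were seen. Alternatives covered centring, scaling, missing values, probe rule, noisy genes, prior, array weights, minimum fold, log base and each array left out.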

Additional observations from a re-analysis of the deposited data

Results flagged for a closer look

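An array far from the other 4 was found for 4 of 48 measures checked. Psmd7, Fbxw8 and Rnf19b were among the 10 members with an SD above 0.354 log2. A far array raises the SD, so a chance rate of about 5% cannot be set beside this count. Psmd7, a structural subunit of the proteasome cap, had -1.68 log2 on array 4, where the others had -0.34 to -0.27. Fbxw8, the F-box partner of Cul7, had -1.33 on array 2, where the others had -0.63 to -0.38. Rnf19b had -1.45 on array 2 beside -0.75 to -0.57. Sumo2 had -0.35 on array 3 beside -0.44 to -0.43, a small gap in a gene of small spread. None of these genes passed the 2-fold test, and their sign was the same on all arrays.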

How the results depend on the processing

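No paired analysis was possible because the arrays form 1 group and each carries both pools. A minimum of 1.5-fold in place of 2-fold called 32 members, 14 higher and 18 lower, and 1408 genes in all, which follows from the minimum. Reading the deposited values as log2 left 0 members past the test, 0 higher and 0 lower, 0 of the 12 named and 7 genes in all, with medians of -0.018 for the members and -0.052 for proteasome subunits, so every call rests on the log base. Sets without 1 array gave 11 to 12 members past the 2-fold test, 6 to 7 higher and 5 to 6 lower, 207 to 216 members against 0, medians of -0.06 to -0.04 for the members and -0.18 to -0.17 for proteasome subunits, 528 to 562 genes in all, and 11 to 12 of the 12 named members remained. Of 120 alternative summary values, 109 moved by under 1.5 times (counts) or by less than 1 SD over arrays (medians). Of 582 values of named members, 557 kept their sign and their side of the test, 17 fell below it and 8 rose above it; none changed sign. Those that fell below it were the 12 called members with the values read as log2, Klhl23 in 4 of 5 sets without an array, and Trim13 under scaling. Those that rose above it were Otud7b with array weights (adjusted p of 0.0479), without array 5 (0.0398) and at 1.5-fold, and Cops7a, Cul2, Senp8 and the proteasome subunits Psma1 and Psmd14 at 1.5-fold. Reading exact 0 as a ratio of 0 was chosen after seeing the data. The cause of these changes was not tested.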

Other observations

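Probes that the platform annotation gives several gene symbols, at least 1 of them of the ubiquitin, SUMO or proteasome families, numbered 33 and entered no comparison. Of these, 31 had a value on all arrays, and 3 had a mean at least 2-fold from 0.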
